A study of Mus musculus with 8 samples.

Results

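Thapsigargin empties the calcium store of the endoplasmic reticulum (ER) by blocking its calcium pump, and the 10 genes described here encode the proteins that fill, empty and sense that store: the pumps Atp2a2 and Atp2a3, the IP3 receptors Itpr1, Itpr2 and Itpr3, the store sensors Stim1 and Stim2, the plasma membrane channel subunits Orai1 and Orai3, and the leak channel Tmco1. They were chosen by name for what they do and make up 10 of the 55304 gene symbols annotated on the 21 chromosomes that hold regions. Mouse primary hepatocytes (MPH) of adult male C57Bl6 mice (C57BL/6J in the methods), all WT, were cultured without serum and exposed for 4 h either to 1 µM thapsigargin, which causes ER stress (ERS), or to the vehicle, 0.04% DMSO. Chromatin carrying H3K27ac, a histone mark of active promoters and enhancers, was sequenced from 3 independent preparations per treatment together with 1 input library each, 8 libraries in all. The authors' paired comparison of the treatments sorted H3K27ac regions into H3K27ac UP (more signal with thapsigargin), H3K27ac DOWN (less signal) and unchanged. The region lists give positions and class, with no signal, fold change or p-value per region or library, so the values below are positions, widths and counts without an error between preparations, the depth is unknown, and no test of a gene could be run. An unchanged region is one that missed the authors' threshold, which does not show equal H3K27ac in both treatments. Regions that passed it with a mix of UP and DOWN bins were put in none of the lists, and bins at the level of input were left out, so a start with no region is one in none of the 3 lists and not one shown to lack H3K27ac.

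The concentration of calcium in the ER lumen is far above that of the cytosol. SERCA pumps use ATP to load the store, IP3 receptors open when a hormone raises IP3 and let calcium out, and further leak pathways release it at rest. When luminal calcium falls, STIM proteins in the ER membrane cluster near the plasma membrane and open ORAI channels, and the calcium that enters is pumped back into the ER. In hepatocytes this cycle carries the calcium waves set off by vasopressin, adrenergic agonists and ATP, and ER chaperones need luminal calcium to fold proteins.

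Over the whole genome there were 32196 regions, of which 17.1% were UP, 10.5% DOWN and 72.4% unchanged, with a median width of 1311 bp. The label of the cells was checked against markers by asking whether a transcription start site (TSS) of the gene lay in a region. It did for 7 of 8 hepatocyte markers (Alb, Ttr, Apoa1, Hnf4a, Serpina1a, Tat and Asgr1, not Cyp2e1). It also did for 1 of 6 macrophage markers (Cd68), 1 of 6 endothelial markers (Stab2) and 2 of 6 cholangiocyte markers (Sox9 and Spp1), and for 0 of 6 stellate and 0 of 6 lymphocyte markers. How far other liver cells contributed to the regions described below was not tested.

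The starts of these genes lay mostly in unchanged regions, and the exception was the main ER calcium pump. Of the 10 genes, 8 had a TSS in a region, where 44.8% of all protein-coding genes did. Among those 8, Atp2a2 alone had a TSS in an UP region and 0 had one in a DOWN region. The other 7 had at least 1 TSS in an unchanged region, and not all of their TSSs lay in a region. In a region were 3 of 13 distinct TSSs of Itpr1, 4 of 10 of Itpr2, 4 of 9 of Stim1, 2 of 5 of Stim2 and 3 of 4 of Tmco1. All TSSs of Orai1 and Orai3 were. Over the 12261 genes with a TSS in any region, 21.4% had one in an UP region and 8.91% in a DOWN region, so 1 of 8 in UP and 0 of 8 in DOWN are counts too small to be read apart from this background. Atp2a3 and Itpr3 had no TSS in a region of any class.

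**Figure D1:**
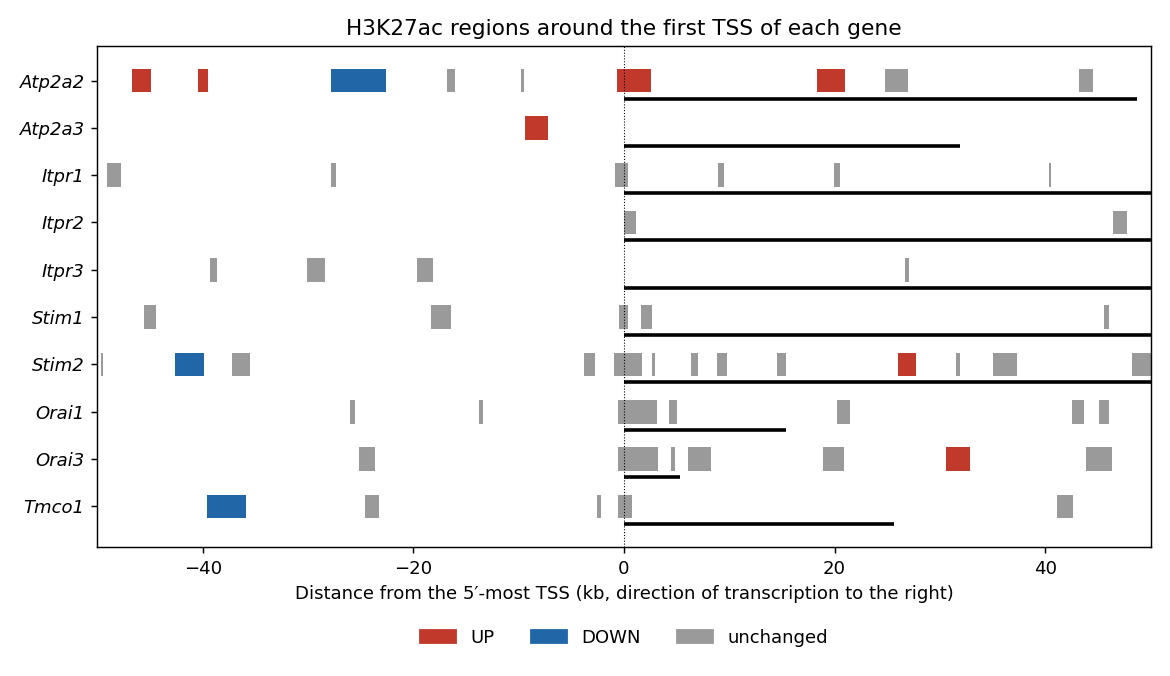
H3K27ac regions within 50 kb of the 5′-most TSS of each gene, in kb along the direction of transcription, with UP regions in red, DOWN in blue, unchanged in grey and the gene as a black line. Only Atp2a2 has a coloured region over its start, and Atp2a3 has a single region in the window.

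Among the pumps, which thapsigargin blocks, Atp2a2 encodes SERCA2, the calcium ATPase that nearly all cells use. It lies at chr5:122453513-122502225 on the minus strand (48.7 kb, mm10). All 5 of its annotated TSSs fell in 1 UP region, chr5:122499683-122502913, which is 3231 bp wide, reaches from 688 bp upstream to 2542 bp downstream of the 5′-most TSS and covers 5′ UTR and coding sequence. Among genes with a TSS in any region, this region is at least as wide as the widest TSS region of 75.5%. A further UP region of 2734 bp, chr5:122481198-122483931, sits in an intron 17.7 kb from the nearest Atp2a2 TSS and 1068 bp from a TSS of the predicted gene Gm43359. Upstream of the gene lay a DOWN region of 5264 bp at 22.6 kb (the widest region near any of the 10 genes, with Gm22965 as the nearest TSS) and 2 UP regions of 949 bp at 39.5 kb and 1763 bp at 44.9 kb, both nearer to the TSS of Ift81, an intraflagellar transport gene. Within 50 kb of its TSSs Atp2a2 thus had 4 UP, 1 DOWN and 5 unchanged regions, and regions covered 18.0% of its body. No other gene of the set had more than 2 UP regions in its window.

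A stretch of the intronic Atp2a2 UP region is printed because it holds that region's only match to the letters TGANTCA, the site of AP-1, a family of stress-responsive factors built from FOS, JUN and ATF proteins. It is chr5:122481238-122481344 (GRCm38.p6, the assembly of mm10, plus strand), with the match in capitals.
Atp2a2 intron, UP: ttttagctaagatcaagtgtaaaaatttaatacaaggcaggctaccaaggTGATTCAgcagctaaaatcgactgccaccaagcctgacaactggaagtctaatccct

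Atp2a3 encodes SERCA3, a pump of lower calcium affinity known mainly from blood, endothelial and some epithelial cells. It lies at chr11:72961169-72993044 on the plus strand (31.9 kb). None of its 3 distinct TSSs and no base of its body lay in a region. The single region within 50 kb was UP, chr11:72951812-72953960, 2149 bp wide and 7.2 kb upstream, and it holds a TSS of the predicted gene Gm44467. The nearest DOWN region was 103.1 kb away. Both pumps therefore had an UP region within 10 kb, but only in Atp2a2 did it hold a TSS of the pump itself.

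The IP3 receptors are the hormone-gated release channels of the store. Hepatocytes are known to use mainly ITPR2, with ITPR1 beside it, whereas ITPR3 is the main form of cholangiocytes. Their regions differed in number more than in class. Itpr1 had 24 regions within 50 kb of its TSSs, Itpr2 had 9 and Itpr3 had 5, and all but 1 at Itpr1 and 1 at Itpr2 were unchanged.

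Itpr1 lies at chr6:108213096-108551109 on the plus strand (338.0 kb). Of its 13 transcripts, 2 start in an unchanged region of 1294 bp, chr6:108212237-108213530, which spans from 859 bp upstream to 434 bp downstream of the 5′-most TSS. A further transcript starts in an unchanged region of 1710 bp inside the gene, 294.7 kb downstream. The body held 22 regions, more than any other gene of the set, and 21 of them were unchanged. They include the widest region of these gene bodies, an intronic 4903 bp at chr6:108324557-108329459, 26.8 kb from the nearest TSS. The exception was DOWN, an intronic region of 1438 bp at chr6:108463687-108465124, 250.6 kb into the gene and 4984 bp from an internal TSS. The nearest UP region was 157.9 kb away. Its 24 regions lay near 13 distinct TSSs spread along the gene, which makes its window longer than that of a gene with 1 start.

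Itpr2 lies at chr6:146108299-146502223 on the minus strand and is the longest of the 10 genes (393.9 kb). Of its 11 transcripts, 4 start in an unchanged region of 1129 bp, chr6:146501093-146502221, whose edge falls 2 bp inside the 5′-most TSS. A further transcript starts in an unchanged region of 1108 bp, 305.0 kb into the gene. The body held 9 regions, 8 unchanged and 1 UP. The UP region, chr6:146185446-146186183, is 738 bp wide, intronic, 316.0 kb from the 5′-most TSS and 10.8 kb from an internal TSS. The nearest DOWN region was 127.0 kb away. Regions covered 2.36% of the Itpr2 body against 8.29% of the Itpr1 body.

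These intronic regions of Itpr1 and Itpr2 are the only changed regions of the IP3 receptors, and they went in opposite directions. The Itpr2 UP region has 3 matches to the AP-1 letters within 244 bases, here in capitals (chr6:146185718-146185961, GRCm38.p6, plus strand), where 44.4% of UP regions of like width (within 10%) have any. An unchanged intronic region of Itpr2, 1262 bp wide, has 3 matches as well. The Itpr1 DOWN region has 0 in its 1438 bp, where 37.3% of DOWN regions of like width have any, so its central 100 bases are printed without capitals (chr6:108464356-108464455, plus strand).
Itpr2 intron, UP: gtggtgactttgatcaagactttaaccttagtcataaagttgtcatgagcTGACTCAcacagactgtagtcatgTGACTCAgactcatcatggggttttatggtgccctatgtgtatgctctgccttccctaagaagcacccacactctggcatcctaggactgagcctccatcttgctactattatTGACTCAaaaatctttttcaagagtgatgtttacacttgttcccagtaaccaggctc
Itpr1 intron, DOWN: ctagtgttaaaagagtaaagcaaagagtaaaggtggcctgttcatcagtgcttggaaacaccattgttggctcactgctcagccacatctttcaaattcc

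Itpr3 lies at chr17:27057304-27122223 on the plus strand (64.9 kb). Neither of its TSSs lay in a region, and its body held 1 unchanged intronic region of 399 bp, or 0.615% of its length. The other 4 regions near it were unchanged too. They lay at the TSSs of Ggnbp1, of Bak1 (a pro-apoptotic BCL2 family member) and of Uqcc2, an assembly factor of a respiratory complex, and 4826 bp from a TSS of Ggnbp1. The nearest UP region was 440.5 kb away and the nearest DOWN region 356.4 kb.

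**Figure D2:**
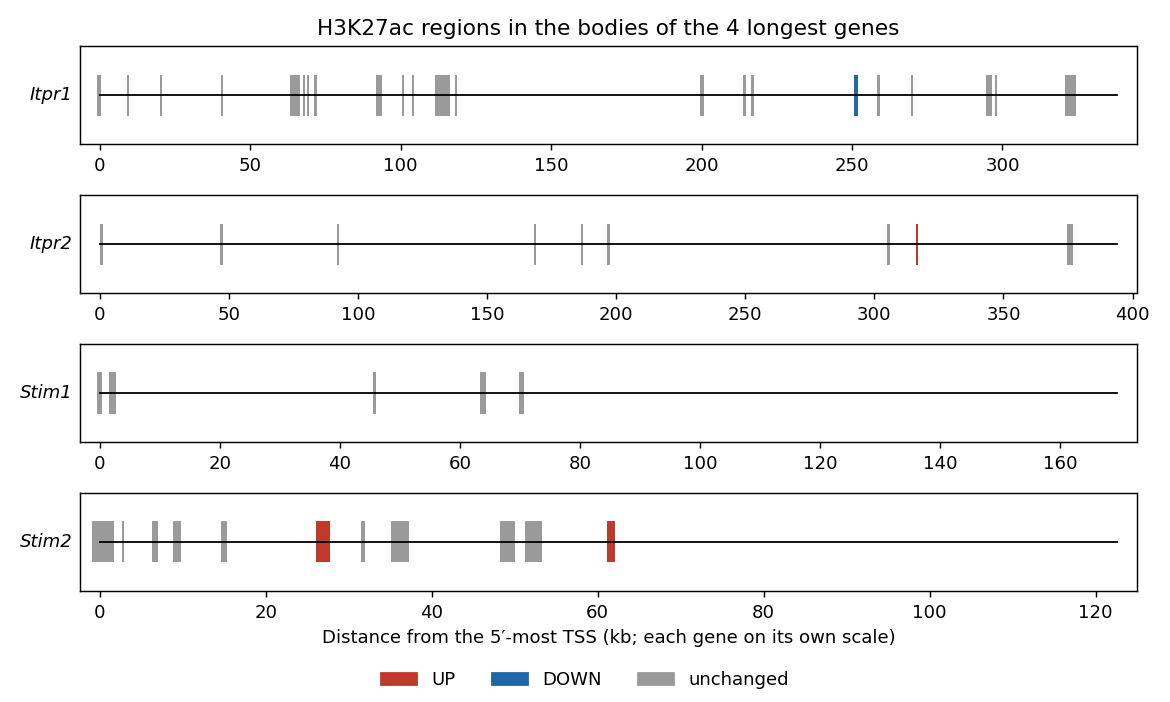
H3K27ac regions along the bodies of Itpr1, Itpr2, Stim1 and Stim2, in kb from the 5′-most TSS, each gene on its own scale, with UP regions in red, DOWN in blue and unchanged in grey. The coloured regions are 1 DOWN in Itpr1, 1 UP in Itpr2, 0 in Stim1 and 2 UP in Stim2.

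The promoters of Stim1 and Itpr3 are shown as a pair, since both are rich in CpG and only the former lay in a listed region. The 250 bases before the RefSeq start of each are printed with CpG dinucleotides in capitals (GRCm38.p6, plus strand). The Stim1 stretch, chr7:102267569-102267818, has 31 CpG and lies in an unchanged region, and the Itpr3 stretch, chr17:27057054-27057303, has 25 CpG and lies in none.
Stim1 promoter: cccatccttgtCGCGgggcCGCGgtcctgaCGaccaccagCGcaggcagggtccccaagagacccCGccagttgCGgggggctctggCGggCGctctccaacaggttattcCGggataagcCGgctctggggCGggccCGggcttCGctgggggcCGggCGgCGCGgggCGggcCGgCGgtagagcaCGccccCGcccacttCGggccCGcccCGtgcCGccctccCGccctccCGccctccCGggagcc
Itpr3 promoter: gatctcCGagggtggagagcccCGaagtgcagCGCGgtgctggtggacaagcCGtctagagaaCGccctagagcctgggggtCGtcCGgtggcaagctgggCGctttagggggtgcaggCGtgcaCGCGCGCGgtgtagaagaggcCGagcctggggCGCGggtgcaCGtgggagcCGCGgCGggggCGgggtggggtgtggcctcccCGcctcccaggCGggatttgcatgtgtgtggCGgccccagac

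RefSeq promoters (250 bases before to 50 after the start) were matched for 8 of the 10 genes, the others being Atp2a2 and Itpr1. Their median GC content was 71.3% and their median ratio of observed to expected CpG 0.81. Over all 32851 promoters the medians were 52.7% and 0.38, and over the 10332 promoters whose start lies in a region 61.3% and 0.79. The range ran from 57.7% GC and a ratio of 0.44 in Orai3 to 78.7% GC in Stim1 and a ratio of 1.10 in Tmco1. The 2 genes with no TSS in a region were not CpG-poor, with 68.3% GC and a ratio of 0.71 in Atp2a3 and 72.3% and 0.80 in Itpr3.

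The store sensors span the ER membrane and bind luminal calcium through an EF hand. STIM1 responds to a deep loss of calcium and is the main activator of ORAI1, whereas STIM2 responds already to a small loss and keeps basal calcium steady. Neither had a changed region at a TSS, and they differed in what lay around it. Stim1 (chr7:102267806-102437319, plus strand, 169.5 kb) had the narrowest TSS region of the set, 899 bp unchanged at chr7:102267341-102268239, from 465 bp upstream to 433 bp downstream of the 5′-most TSS. Among genes with a TSS in any region, it was at least as wide as the widest TSS region of only 15.4%. The Stim1 body held 5 regions, all unchanged, over 2.15% of its length. The only change within 50 kb of a Stim1 TSS was a DOWN region of 1235 bp, 48.2 kb from a TSS of an alternative transcript and 1068 bp from the TSS of the olfactory receptor gene Olfr543.

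Stim2 (chr5:53998499-54121057, plus strand, 122.6 kb) had an unchanged TSS region of 2705 bp at chr5:53997522-54000226, from 977 bp upstream to 1727 bp downstream. Its body held 11 regions over 11.0% of its length, of which 2 were UP, both intronic. They are chr5:54024565-54026261, 1697 bp wide and 26.0 kb from the nearest TSS of the gene, and chr5:54059637-54060541, 905 bp wide and 14.2 kb from a TSS. A DOWN region of 2730 bp lay 39.9 kb upstream. With 2 UP, 1 DOWN and 12 unchanged regions in its window, Stim2 was the only gene of the set besides Atp2a2 with changes in both directions.

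The stretches of the Stim2 UP regions around their AP-1 letters are printed as a set, since they hold all 3 matches of these 2 regions, 1 in the wider and 2 in the narrower. They are chr5:54024779-54024885, chr5:54059743-54059849 and chr5:54060226-54060332 (GRCm38.p6, plus strand), with the match in capitals.
Stim2 intron, wider UP region: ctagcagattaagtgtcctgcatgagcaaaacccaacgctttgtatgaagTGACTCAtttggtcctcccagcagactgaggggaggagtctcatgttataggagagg
Stim2 intron, narrower UP region, upstream match: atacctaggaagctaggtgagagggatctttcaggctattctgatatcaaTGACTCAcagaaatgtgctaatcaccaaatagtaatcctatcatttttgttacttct
Stim2 intron, narrower UP region, downstream match: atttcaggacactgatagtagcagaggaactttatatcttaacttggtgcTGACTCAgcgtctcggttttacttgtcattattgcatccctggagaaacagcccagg

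The entry channels had the widest unchanged regions over their starts. ORAI1 forms the pore of store-operated calcium entry, and ORAI3 is a related subunit found in mammals. Orai1 (chr5:123015074-123030456, plus strand, 15.4 kb) had all 3 of its transcript starts in an unchanged region of 3719 bp, chr5:123014527-123018245, which also holds a TSS of the predicted gene Gm2479. All 7 regions in its window were unchanged, the nearest UP region was 60.3 kb away and the nearest DOWN region 309.6 kb. Orai3 (chr7:127769815-127775150, plus strand, 5.3 kb) had all 3 starts in an unchanged region of 3826 bp, chr7:127769237-127773062, and regions covered 67.5% of its short body. Among genes with a TSS in any region, this region was at least as wide as the widest TSS region of 81.6%. The single UP region in the window of Orai3, 2308 bp at 30.6 kb, lies over the TSS of Hsd3b7, an enzyme of bile acid synthesis. Both TSS regions were wider than that of Atp2a2, and neither was UP.

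Tmco1, an ER membrane protein described as a leak channel that opens when the store is overfilled and as a part of a translocon complex, lies at chr1:167308378-167333978 on the plus strand (25.6 kb). Of its 4 transcripts, 3 start in an unchanged region of 1308 bp, chr1:167307819-167309126. This was the only region in its body. A DOWN region of 3738 bp lay 35.9 kb upstream, nearest to the TSS of Uck2, a pyrimidine salvage kinase. The nearest UP region was 1048.2 kb away, farther than for any other gene of the set.

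**Figure D3:**
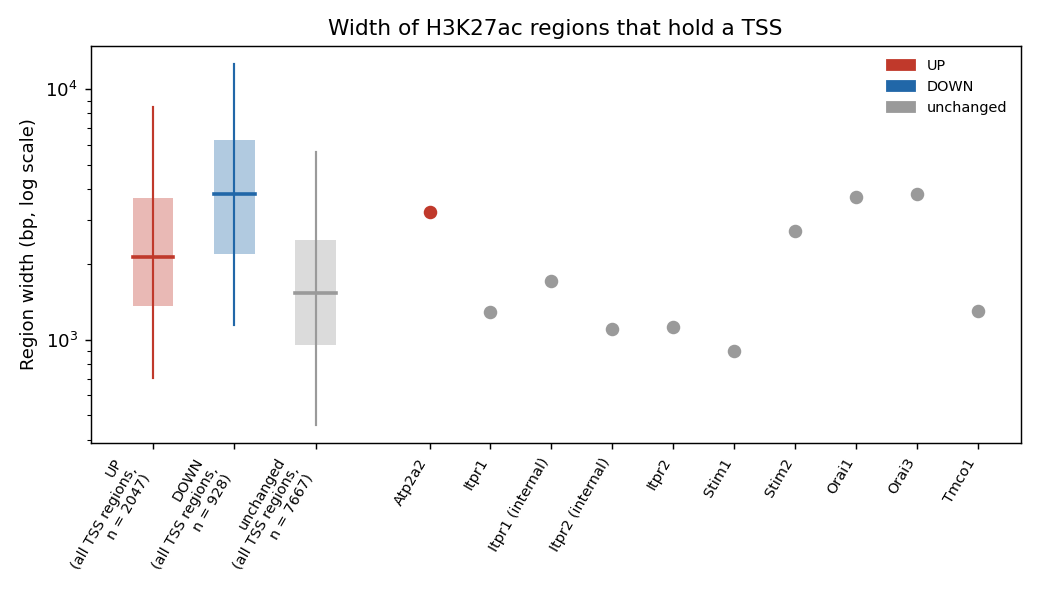
Widths in bp on a log scale of the 10 regions that hold a TSS of the set (points; internal, inside the gene) beside all TSS regions of each class (bar, 25th to 75th percentile; line, median; whiskers, 5th to 95th percentile). The widths run from 899 bp at Stim1 to 3826 bp at Orai3, and the only UP region, at Atp2a2, is 3231 bp wide.

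The 10 TSS regions had a median width of 1509 bp. Over the genome, TSS regions in the DOWN class were the widest, with a median of 3828.5 bp (n = 928), followed by UP with 2136 bp (n = 2047) and unchanged with 1530 bp (n = 7667). The share of TSS regions called DOWN was 1.63% up to 1 kb and 26.7% over 4 kb, and the share called UP was 10.5% and 26.1%, so a region's class has to be read against its width. Among the 8122 genes whose widest TSS region was as wide as those of this set (899 to 3826 bp), 21.8% had a TSS in an UP region and 5.84% in a DOWN region. The set has no TSS region over 4 kb, the width at which DOWN calls were most frequent.

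Around the genes, too, most regions were unchanged. Within 50 kb of their TSSs lay 89 regions, 9 UP, 5 DOWN and 75 unchanged, and none was shared by a pair of these genes. The changed share was 15.7% (95% Wilson interval 9.61 to 24.7, counting error alone, with regions as units), where 27.6% of all regions were changed. Counted by base pairs instead, it was 24.8% (16474 bp UP and 14405 bp DOWN of 124537 bp). Over all regions, 12847435 bp were UP and 10888799 bp DOWN of 60527033 bp, a higher changed share than near these genes. UP regions made up 64.3% of the changed ones (38.8 to 83.7) near these genes and 62.0% over the genome. In the gene bodies, 6 of 57 regions were changed (5 UP and 1 DOWN), or 10.5% (4.91 to 21.1). Itpr1 held 22 of these 57, with 21 unchanged, and the same share over the bodies of all genes was not computed. Atp2a2 held 5 of the 14 changed regions within 50 kb, and without it the changed share was 11.4%. Itpr1 held 24 of the 89 regions, 23 of them unchanged, and without it the changed share was 20.0%.

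Counted by gene, an UP region lay within 50 kb in Atp2a2, Atp2a3, Itpr2, Stim2 and Orai3, and a DOWN region in Atp2a2, Itpr1, Stim1, Stim2 and Tmco1. Among the 8 genes with a TSS in a region, these were 4 with UP and 5 with DOWN, and Orai1 (12.5%) had neither. Over all genes with a TSS in a region, 53.0% had an UP region in the window, 31.9% a DOWN region and 31.4% neither. The median of the 8 was 8 regions in the window and 4.5 in the body, where the median over all genes with a TSS in a region was 4 and 1. Of the 2 genes with no TSS in a region, Atp2a3 had its UP region and Itpr3 had no change. Windows grow with the number and spread of a gene's TSSs. Itpr1 and Itpr2 are long genes with 13 and 10 distinct TSSs. Orai1 and Orai3 are short genes with 2 and 1, and each had 7 regions in its window. Whether H3K27ac is denser near these genes was not tested.

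Of the 14 changed regions, 5 lay in gene bodies away from a TSS. All 4 intronic UP regions, in Atp2a2, Itpr2 and Stim2, held at least 1 match to TGANTCA, 7 in all or 1.15 per kb. The intronic DOWN region of Itpr1 held 0, and 12 of 42 unchanged regions in bodies away from a TSS held any, with 0.395 matches per kb. Over the genome, UP regions had 0.586 matches per kb, DOWN 0.373 and unchanged 0.444, and in the central 300 bp a match was found in 24.9% of the UP class, 12.8% of the DOWN class and 17.0% of the unchanged class. Longer regions hold a match more often: among UP regions of like width the share was 69.6% for the Atp2a2 intron, 63.7% and 52.1% for the Stim2 introns and 44.4% for the Itpr2 intron. Adding the regions at a TSS or outside the bodies, 8 of 9 UP regions held a match (all but the one upstream of Atp2a3) and 2 of 5 DOWN regions did. Those counts are over whole regions. Of these changed regions, only the UP regions in Itpr2 and near Orai3 held a match in the central 300 bp, the measure of the class shares above. Among regions of like width and class, the share with a match ran from 44.4% to 77.8% for these UP regions. For these DOWN regions it ran from 36.4% to 88.0%, and the difference between the counts was not tested. A match is a string of letters and not a measured binding site.

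The motifs of the unfolded protein response were looked for in the same way, on both strands. They were ERSE (CCAAT and CCACG with 9 bases between them), ERSE-II (ATTGG and CCACG with 1 base between), UPRE (TGACGTGG) and the ATF4/CHOP site (TGATG and AAT with 1 base between), with AP-1 (TGANTCA, which reads the same on both strands and was counted once per place). The CCACG end is common to ERSE, ERSE-II and the reverse complement of UPRE, so those can overlap, whereas AP-1, UPRE and ATF4/CHOP all open with TGA but cannot start at the same base of the same strand. None of the 8 promoters held any of the 5 motifs. Over all promoters ERSE was found in 0.119%, ERSE-II in 0.0365%, UPRE in 0.676%, ATF4/CHOP in 0.965% and AP-1 in 7.81%, so that 0 of 8 is close to the background. In the 14 changed regions ERSE, ERSE-II, UPRE and ATF4/CHOP were all at 0, and among the 77 unchanged ones ATF4/CHOP was found in 4 and UPRE in 2. The UPRE matches lay in the Stim2 TSS region and in a region upstream of Stim2, and the ATF4/CHOP matches in the bodies of Atp2a2 and Itpr1. No match says only that these letters are not in these windows.

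The genes that work with the 10 were taken as 10 lists by role, with 126 of 127 symbols matched. Of these 126, 83 had a TSS in a region, and of the 83 the share with one in an UP region was 37.3%, with one in a DOWN region 8.43%. The UP share stands above the 21.4% of all genes, and the luminal binders carry part of it: without them it was 30.6% of 72. By list, the UP share ran from 12.5% for the calcium receptors of hepatocytes to 81.8% for the luminal binders. It was 22.2% for the enzymes of IP3, 26.7% for mitochondrial uptake and ER contacts and 28.6% for calcineurin and NFAT, each close to the share of all genes given its few genes. The lists were drawn up with earlier results of these data known and were not tested.

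**Figure D4:**
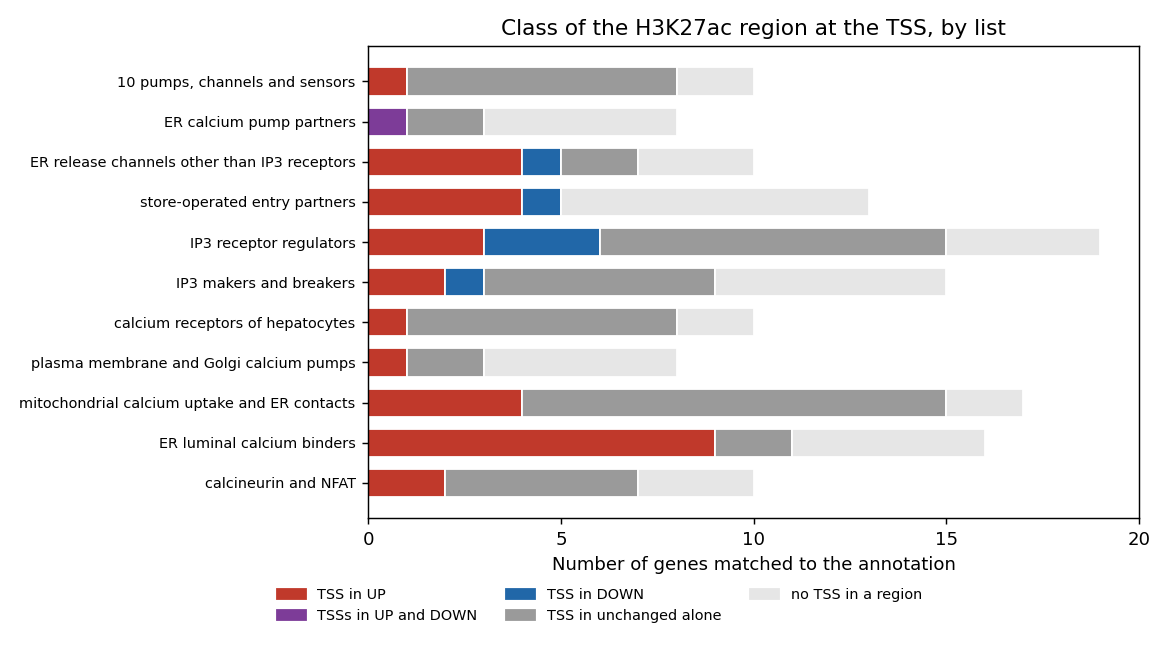
Number of genes of each list with a TSS in UP (red), in UP and DOWN (purple), in DOWN (blue), in unchanged regions alone (dark grey) or in none (light grey). The top bar is the set of 10, with 1 gene in red, and the bar of the ER luminal calcium binders has 9 of 16 genes in red.

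The luminal calcium binders, which buffer the store and fold proteins with it, were the list with most UP starts, 9 of 11 with a TSS in a region. These were Calr and Canx (the lectin chaperones calreticulin and calnexin), Hspa5 (BiP), Hsp90b1 (GRP94), the disulfide isomerases Pdia3 and Pdia4, Calu, Nucb1 and Cnpy2, with TSS regions from 1532 bp at Nucb1 to 6701 bp at Hspa5. Many of them are classical targets of the unfolded protein response. Hspa5 was also among the 4 genes from which the direction of the UP and DOWN lists was read, so its UP class is not independent of that reading.

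The other release channels and leak pathways had 4 of 7 starts in UP. They include Tmbim6 (12141 bp, an anti-apoptotic ER channel protein), Psen2 (a membrane protease) and Sec61a1 (the pore of the protein translocon, through which calcium leaks). The widest TSS region of Psen2, 5880 bp, was unchanged. Tmem38b, a counter-ion channel of the ER, was DOWN with 4545 bp. The ryanodine receptors Ryr1, Ryr2 and Ryr3, the release channels of muscle and nerve, had no TSS in a region.

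Among the partners of store-operated entry, all 5 genes with a TSS in a region were changed while Stim1, Stim2, Orai1 and Orai3 were not. UP were Orai2 (1828 bp), the remaining ORAI subunit, Saraf, which turns the STIM-ORAI complex off, and Esyt1 (1146 bp) and Esyt2 (4106 bp), tethers between ER and plasma membrane. Saraf had TSSs in both UP and unchanged regions, and the widest of them, 1593 bp, was unchanged. DOWN was Asph (2842 bp), a locus that also encodes the ER protein junctate. Another 8 partners had no TSS in a region, which leaves 5 values and no ground to call the list apart. Orai2 thus differed in class from its relatives Orai1 and Orai3, although its region was narrower than theirs.

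Regulators of the IP3 receptors had 3 UP, 3 DOWN and 9 unchanged. That is 20.0% UP and 20.0% DOWN, where 21.4% and 8.91% of all genes with a TSS in a region were so, and the difference was not tested. UP were Ahcyl1 (2114 bp) and Ahcyl2 (1824 bp), the IRBIT proteins that compete with IP3 for the receptor, and Erlin1 (3033 bp), of the complex that tags activated receptors for degradation. DOWN were the BCL2 family members Bok (2660 bp), Bcl2l1 (6893 bp) and Mcl1 (12250 bp, the widest of the list), all known to bind IP3 receptors. Bcl2 itself (913 bp) was unchanged, as were Erlin2 (903 bp) and Rnf170 (3445 bp), listed with Erlin1. The regions of Bcl2l1 and Mcl1 are over 4 kb, a width at which 26.7% of all TSS regions were DOWN. Of the enzymes that make or break down IP3, Plcd1 (411 bp) and Inpp5b (2361 bp) were UP, Plcg1 (2379 bp) was DOWN and 6 were unchanged, the widest of them Itpkc with 2940 bp. Of the receptors that raise calcium in hepatocytes and the G protein subunits they act through, only the adrenergic receptor Adra1b (4275 bp) was UP and 7 were unchanged. These 7 are the receptors Avpr1a (vasopressin), Agtr1a, P2ry1, P2ry2 and P2rx4, whose region was the widest with 5052 bp, and the subunits Gnaq and Gna11.

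Partners of the ER pumps had few marked starts. Of 8 matched genes 5 had no TSS in a region, among them the muscle pump Atp2a1 and the pump inhibitors Pln and Sln. S100a1 (1601 bp) and Tmx1 (705 bp) were unchanged, and Vmp1, an ER protein of autophagy that acts on SERCA, had TSSs in both UP and DOWN regions. Of the pumps of the plasma membrane and Golgi, Atp2b1 (2375 bp), the widely used plasma membrane pump, was UP, and Atp2c1 and Tmem165 were unchanged. Calcium uptake into mitochondria and ER contacts had 4 UP of 15, namely Mcu (1092 bp, the pore of the uniporter), Smdt1 (9604 bp, its subunit EMRE), Slc8b1 (7185 bp, the exchanger that lets calcium out) and Hspa9 (3941 bp, the chaperone between IP3 receptors and the outer membrane), with 11 unchanged. Of calcineurin and the NFAT factors it activates, Ppp3ca (3240 bp) and Nfatc1 (1282 bp) were UP and 5 unchanged, the widest being the feedback inhibitor Rcan1 with 5683 bp.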

How the data were processed

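H3K27ac ChIP-seq was performed on MPH, with 3 H3K27ac libraries and 1 input per treatment. The region lists deposited by the authors and used here hold the mm10 coordinates of the regions (first and last base), with neither counts nor signal. According to the methods, Bowtie alignments were freed of duplicates and blacklisted regions, broad peaks were called by MACS2 on pooled libraries against input (q of 0.001 and 0.01), and reads in 150 bp bins extended to 200 bp were filtered against input, normalized by loess and fitted with the libraries paired in csaw 1.6.1. Bins overlapping a peak by at least 75 bp were combined. UP regions had an FDR up to 0.05 with at least 2 UP bins for each DOWN bin, DOWN regions a ratio up to 0.5, and unchanged regions an FDR above 0.05. Ratios between these limits put a region in none of the lists. As the published code codes the treatments in an order that could turn the sign, the direction was read from Hspa5, Ddit3, Herpud1 and Xbp1, induced in ERS, whose TSSs lay in UP regions (4 of 4).

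TSSs and gene bodies were those of the 141730 transcripts of GENCODE release M21. A gene took each class of region that held a TSS, and windows reached 50 kb to both sides of every TSS. Shares are given with 95% Wilson intervals. Letters were searched on GRCm38.p6 and promoter sequences came from RefSeq. Named are the 10 genes, the genes of each list with a TSS in a changed region, the widest region of each list, and genes whose TSS is in or nearest to a region described, except 1 gene that is not reported here. Ryr1, Ryr2, Ryr3, Atp2a1, Pln, Sln, S100a1, Tmx1, Atp2c1, Tmem165, Avpr1a, Agtr1a, P2ry1, P2ry2, Gnaq, Gna11, Bcl2, Erlin2 and Rnf170 were named after their values were seen. The 10 genes and all lists were chosen with earlier results of these data known. Alternatives were other windows, TSS rules, annotations and width minimums. Python 3.11.15, numpy 2.4.6, pandas 2.3.3, scipy 1.17.1 and matplotlib 3.10.9 were used, and the counting was tested on simulated data.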

Additional observations from a re-analysis of the deposited data

How the results depend on the processing

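The files hold positions and classes only, so depth, signal and the spread between preparations could not be weighed, and every statement rests on the authors' thresholds. No paired analysis was possible because each region has a position and a class, with no value by library, and leaving out each replicate was not run for the same reason. Of 76 alternatives, 66 kept counts within 1.5 times and shares within the interval of the value reported, and 10 moved. In windows of 25 kb in place of 50 kb the 9 UP, 5 DOWN and 75 unchanged regions became 5, 2 and 47. When a region was kept only where the nearest TSS was that of the gene, they became 4, 1 and 44. With regions of at least 1 kb, unchanged regions in the windows came to 40, and UP and unchanged regions in the bodies went from 5 and 51 to 3 and 25. The changed share of 15.7% became 24.8% by base pairs, since changed regions are wider. The 27.6% of all regions is a share of counts, and by base pairs it is higher too. Alternatives for the changed share, and protein-coding transcripts for the UP share, were added after seeing the data. Leaving out each gene in turn gave a changed share of 11.4% to 20.0% and an UP share of 55.6% to 69.2%. Atp2a2 was the only gene with a TSS in UP, and 0 had one in DOWN, under all 5 other TSS rules tried. Asking for regions of at least 1 kb, for 500 bp covered on each side of the TSS or for protein-coding transcripts can only remove genes. Only a TSS within 1 kb of a region and RefSeq starts could have added a gene. RefSeq starts put 6 genes rather than 8 in a region.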

Other observations

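The widest TSS region of all the calcium lists belonged to Vmp1, a DOWN region of 33987 bp at chr11:86577269-86611255, where the widest region of the genome measured 39094 bp. Within 50 kb of the Vmp1 TSSs lay 5 UP, 1 DOWN and 11 unchanged regions. Adra1b had 5 UP, 0 DOWN and 2 unchanged regions in its window, more UP regions than any of the 10 calcium pumps, channels and sensors. Plcg1 had 1 UP, 5 DOWN and 4 unchanged regions, the most DOWN regions in the window of any gene named from the calcium lists.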
